A study of Mus musculus with 6 samples.

Results

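The type I interferon pathway was examined in the mouse mesothelioma lines AC29 and AB1 through 34 listed genes, from the receptor to the genes switched on by the transcription factor complex ISGF3. A gene was measured by the probe sets whose annotation named it alone, and the brightest of these, by its mean over all 6 arrays, stood for it. In this way 32 of the 34 genes were measured, out of 18193 genes in all. Ifi44 and Isg15 had no such probe set and were not analysed here. AC29 is a line from a CBA mouse, used at passage 60, and AB1 is a line from a BALB/c mouse, used at passage 40; the labels describe both source animals as female and 6 to 8 weeks old. Total RNA came from 3 flasks of each line, scraped at 80% confluency in medium with foetal calf serum. Each flask went on an array of its own. No interferon or other agent is named in the labels. The values were therefore read as levels without an added agent, which was not tested. Each line stands for 1 tumour, and strain, passage and line cannot be told apart here; the replicates are flasks, and p-values measure the spread between flasks. In such bulk RNA, fewer cells that express a gene and less RNA per cell cannot be told apart.

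Type I interferons bind the receptor chains IFNAR1 and IFNAR2, whose kinases TYK2 and JAK1 start the signal. The complex ISGF3, which holds STAT2 and IRF9, binds the interferon-stimulated response element (ISRE) in the promoters of antiviral genes. The products sense viral RNA, block its translation, degrade it or hold back virus release, and USP18 binds the receptor and damps the signal. Many tumour lines keep some of these genes on without added interferon, and others have lost parts of the pathway.

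The promoters of the called genes are shown because the ISRE is the element through which ISGF3 acts. The RefSeq promoter table (GRCm38.p6, C57BL/6J) held windows from 250 bases before to 50 bases after the start site for 26 of the 34 genes. The windows were searched on both strands for the ISRE core GAAANNGAAA and for TTCNNNGAA, the core of the element bound by STAT dimers (GAS), which reads the same on either strand. The ISRE core occurred in 10 of the 26 genes, against 3.44% of 32851 windows of the same length, and the GAS core in 6, against 8.3%. By the call rule given further down, 0 of 3 genes higher in AC29 and 4 of 6 higher in AB1 held an ISRE core. Of the genes that were not called, 5 of 15 held one. These counts cover genes with a window, which Usp18, also called higher in AB1, lacked. The matches of Oas1a overlapped each other, as did those of Bst2, and in Bst2 the GAS match also overlapped an ISRE match. A match is a description of these letters in the reference strain and was not tested as a binding site. In the sequences below, written 5′ to 3′ on the strand of the gene, capitals mark ISRE core matches.
The genes higher in AC29 had none in the window:
Cmpk2, chr12:26468965-26469264 (plus strand): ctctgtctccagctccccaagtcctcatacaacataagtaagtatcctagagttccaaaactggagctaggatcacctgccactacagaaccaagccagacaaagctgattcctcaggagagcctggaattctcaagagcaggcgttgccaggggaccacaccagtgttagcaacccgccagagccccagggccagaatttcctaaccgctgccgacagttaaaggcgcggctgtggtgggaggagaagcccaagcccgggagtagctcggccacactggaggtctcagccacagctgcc
Ifi35, chr11:101448162-101448461 (plus strand): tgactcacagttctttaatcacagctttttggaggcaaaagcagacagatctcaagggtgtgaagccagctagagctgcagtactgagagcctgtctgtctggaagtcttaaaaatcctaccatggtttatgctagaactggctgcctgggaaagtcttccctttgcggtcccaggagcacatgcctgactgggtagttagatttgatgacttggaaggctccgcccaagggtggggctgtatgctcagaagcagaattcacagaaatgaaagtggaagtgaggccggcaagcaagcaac
Parp12, chr6:39118300-39118599 (minus strand): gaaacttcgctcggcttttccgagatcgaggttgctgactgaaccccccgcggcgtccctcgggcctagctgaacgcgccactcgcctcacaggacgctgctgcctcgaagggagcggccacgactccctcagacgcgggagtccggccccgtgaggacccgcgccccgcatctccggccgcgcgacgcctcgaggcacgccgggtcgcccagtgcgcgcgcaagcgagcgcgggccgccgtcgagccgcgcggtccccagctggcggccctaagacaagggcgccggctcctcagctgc
Of the genes higher in AB1, these held matches:
Ifit1, chr19:34640639-34640938 (plus strand): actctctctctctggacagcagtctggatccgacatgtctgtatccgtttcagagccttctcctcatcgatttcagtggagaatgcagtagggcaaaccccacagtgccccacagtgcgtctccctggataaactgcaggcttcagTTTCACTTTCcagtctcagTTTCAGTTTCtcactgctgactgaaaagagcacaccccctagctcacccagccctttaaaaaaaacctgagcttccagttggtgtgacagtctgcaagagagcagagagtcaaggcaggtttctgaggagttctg
Ifit3, chr19:34583279-34583578 (plus strand): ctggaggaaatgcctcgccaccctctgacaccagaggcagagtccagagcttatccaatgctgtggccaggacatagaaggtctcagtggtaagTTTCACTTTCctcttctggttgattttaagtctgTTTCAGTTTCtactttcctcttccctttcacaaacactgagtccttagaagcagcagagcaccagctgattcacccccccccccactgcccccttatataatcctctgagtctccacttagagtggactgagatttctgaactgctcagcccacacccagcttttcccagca
Oas1a, chr5:120907476-120907775 (minus strand): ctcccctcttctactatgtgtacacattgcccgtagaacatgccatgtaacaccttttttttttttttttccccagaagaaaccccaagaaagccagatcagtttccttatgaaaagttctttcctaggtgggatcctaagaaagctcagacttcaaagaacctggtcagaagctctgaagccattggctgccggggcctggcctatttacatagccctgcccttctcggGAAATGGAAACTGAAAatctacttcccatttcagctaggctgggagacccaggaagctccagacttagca
Bst2, chr8:71537423-71537722 (minus strand): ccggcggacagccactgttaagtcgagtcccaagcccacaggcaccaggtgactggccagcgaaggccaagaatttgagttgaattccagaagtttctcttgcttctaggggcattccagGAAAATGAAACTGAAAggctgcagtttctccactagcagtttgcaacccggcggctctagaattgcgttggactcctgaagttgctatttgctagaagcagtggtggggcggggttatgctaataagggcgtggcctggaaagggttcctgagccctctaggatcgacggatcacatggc

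In Ifit1 the matches lay at -104 to -95 and at -85 to -76 from the start site, and in Ifit3 at -156 to -147 and at -122 to -113, all on the opposite strand, so that they read as TTTC pairs. In Bst2 the matched stretch ran from -130 to -115, and in Oas1a from -20 to -5. Irf9 and Irf3, also higher in AB1, had no match in their windows. Of the genes that were not called, Stat2, Ifih1, Eif2ak2, Oas3 and Rsad2 held a match. Thus genes with an ISRE core were found both among those that differed between the lines and among those that did not pass the rule.

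**Figure D1:**
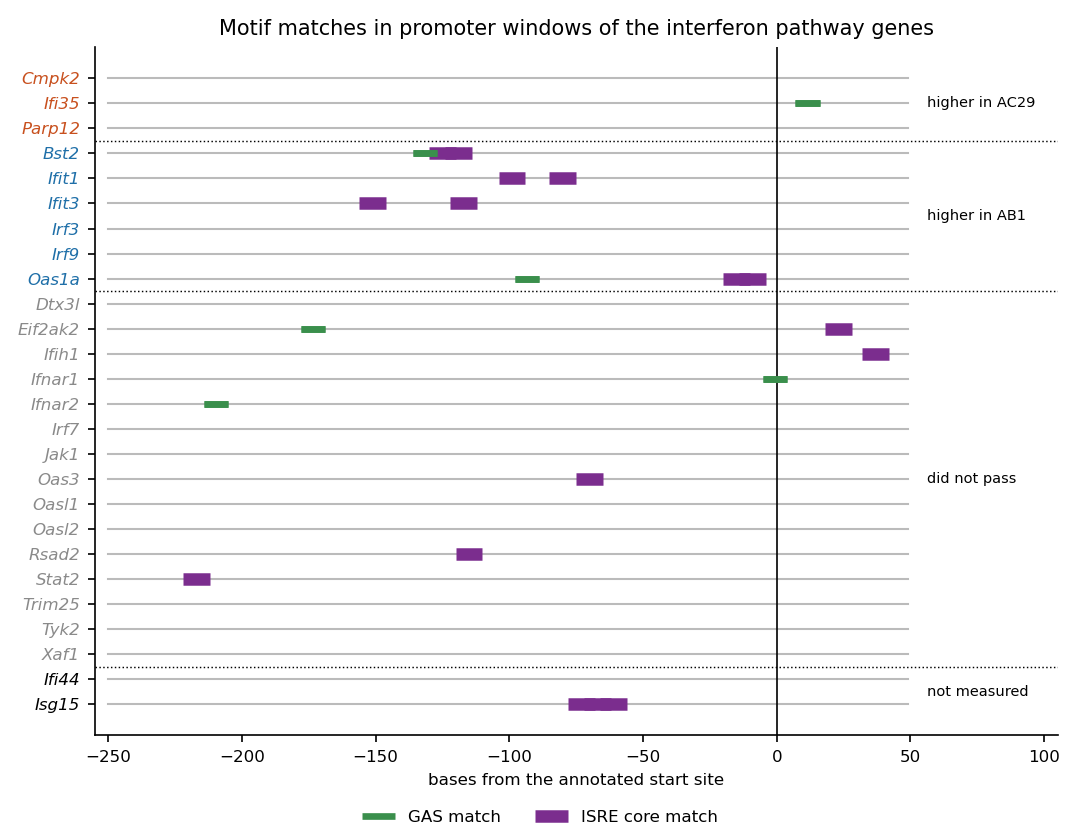
Positions of motif matches in the promoter windows of 26 interferon pathway genes. The horizontal axis is the distance in bases from the annotated start site, purple bars are ISRE core matches and green bars GAS matches; gene names are grouped by call, and 4 of the 6 genes higher in AB1 and 0 of the 3 higher in AC29 carry a purple bar.

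The deposited values were log2 intensities, with array medians between 5.76 and 5.81. A floor of 6.07 was set at the 95th percentile of 86 probe sets for olfactory, vomeronasal and taste receptors. All 12 mesothelial markers had every array above it in AC29, but 4 had in AB1, where Wt1, Upk3b and Krt8 were not above it; Msln read 10.41 in AC29 and 9.67 in AB1. Of 14 macrophage and dendritic cell markers, 10 stayed under the floor in AC29 and 10 in AB1; the list averaged 5.27 to 5.37 per array in AC29 and 5.47 to 5.49 in AB1. The leukocyte antigen Ptprc read 3.64 in AC29 and 3.72 in AB1, while Cd14 read 7.26 in AC29 and 9.02 in AB1. Of 8 lymphocyte markers, 7 stayed under the floor on all arrays. Of 10 fibroblast and muscle markers, 7 had every array above the floor in AC29 and 7 in AB1. By the call rule given further down, 3 of these markers were higher in AC29 and 3 in AB1. Acta2 read 6.53 in AC29 and 13.22 in AB1, while Dcn read 12.81 in AC29 and 5.98 in AB1. The part of cell identity in the results was not tested. Differences below are AC29 minus AB1 on the log2 scale.

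The pathway genes differed in both directions, with the ISGF3 subunit Irf9 and the targets Usp18, Ifit1, Oas1a and Bst2 among those higher in AB1, and Parp12 and Ifi35 among those higher in AC29. Irf9 was at least 3.58-fold and Usp18 at least 5.35-fold higher in AB1, both being under the floor in AC29, and Ifi35 was 2.50-fold higher in AC29. A gene was called where limma gave an adjusted p under 0.05, over all genes, and a difference of at least 1, which is 2-fold. Of the 32 genes, 3 were called higher in AC29 and 7 higher in AB1, and 22 missed the rule; over all genes 5.12% met it toward AC29 and 5.82% toward AB1, 10.9% in all. By the adjusted p alone, 10 lay higher in AC29, beside 19.1% of all genes, and 11 lay higher in AB1, beside 20.0%. AC29 and AB1 arrays were fully separated for 22 of the 32 genes, beside 50.1% of all genes. The median difference over the 32 genes was 0.02, and that over all genes -0.005. The median size of a difference, with its sign left out, was 0.68 for these genes and 0.20 for all genes. The differences of the 32 genes had no common direction. Of all 18193 genes, 6546 were not above the floor on any array, against 3 of the 32. The shares over all genes, here and below, therefore include more genes at background, where differences are small.

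**Figure D2:**
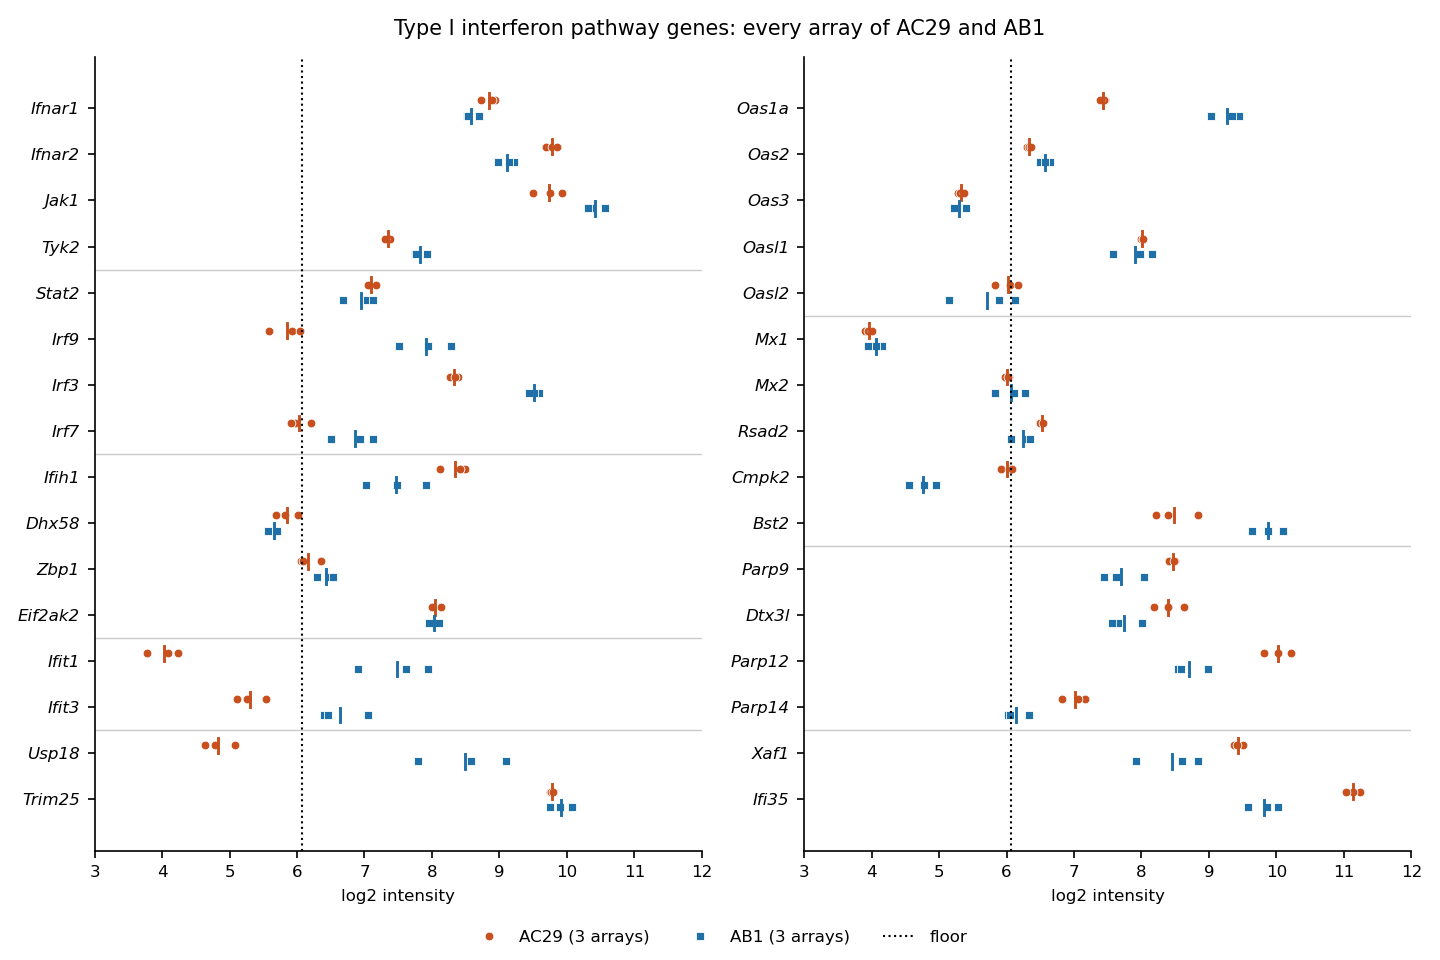
Log2 intensity (horizontal axis) of the 32 measured genes on every array. Orange circles are the 3 AC29 arrays and blue squares the 3 AB1 arrays, short bars are means, the dotted line is the floor of 6.07 and grey lines separate functional groups. Levels can be compared within a gene only; for Usp18, Ifit1, Ifit3 and Irf9 all AC29 points lie left of the floor and all AB1 points right of it.

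All 4 genes of the receptor and its kinases were present in both lines, and their differences were under 2-fold. The receptor chain Ifnar2 read 9.69, 9.78 and 9.86 in AC29 replicates 13, 14 and 15, against 9.22, 9.14 and 8.98 in AB1 replicates 4, 5 and 6, the replicate order kept below. The AC29 flasks were all above the AB1 flasks, by 0.66 (SE 0.0948, adjusted p in limma = 0.000402). Ifnar1, the other chain, averaged 8.85 ± 0.11 in AC29 and 8.58 ± 0.10 in AB1 (SD, n = 3 each), and its adjusted p was 0.0508 in limma. Both kinases read lower in AC29 than in AB1. Jak1, which docks on IFNAR2, read 9.76, 9.50 and 9.93 in AC29 flasks and 10.36, 10.57 and 10.31 in AB1 flasks, a difference of -0.69 (adjusted p in limma = 0.00173) with its other probe sets at -0.48 and -0.66. Tyk2, which docks on IFNAR1, averaged 7.35 ± 0.04 in AC29 and 7.82 ± 0.10 in AB1 (adjusted p in limma = 0.00202), while a further probe set of Tyk2 differed by 0.10 the other way.

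Of the transcription factors, Irf9, the subunit of ISGF3 that contacts DNA, differed most. It read 5.93, 6.04 and 5.59 in AC29, against 7.95, 8.28 and 7.51 in AB1. No AC29 array exceeded the floor and every AB1 array did, so that Irf9 was at least 3.58-fold higher in AB1 (difference -2.06, SE 0.191, adjusted p in limma = 2.38e-05). Stat2, the partner of IRF9 in ISGF3, read 7.07, 7.04 and 7.17 in AC29 and 7.04, 7.12 and 6.69 in AB1. The flasks overlapped, and the 95% interval of the Stat2 difference ran from -0.13 to 0.41. A further Stat2 probe set, above the floor on all 6 arrays, differed by 0.32 (SE 0.117), again with overlapping flasks. On every array Stat2 stayed under 7.23, the 99th percentile of the sensory receptor probe sets.

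Irf3 and Irf7 induce interferon genes themselves once they are phosphorylated, and both read lower in AC29. Irf3 read 8.27, 8.38 and 8.34 in AC29 and 9.58, 9.52 and 9.44 in AB1 and so was 2.27-fold lower in AC29 (adjusted p in limma = 3.73e-06). This probe set carries the array's mark for possible cross-hybridisation; the next brightest probe set of Irf3 differed by -0.93, and on the mean of its probe sets Irf3 missed the 2-fold minimum, at -0.68. On a further Irf3 probe set, above the floor on 4 of 6 arrays, the difference was -0.16. Irf7, an ISGF3 target, averaged 6.03 ± 0.15 in AC29, where 1 of 3 arrays was above the floor, and 6.86 ± 0.32 in AB1 (difference -0.83, adjusted p in limma = 0.00221). Without AB1 replicate 6 the difference of Irf7 was -1.005 and passed the rule.

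The IFIT genes, whose products bind viral RNA, and the brake Usp18 were above the floor on every AB1 array and on no AC29 array. Usp18, which removes ISG15 from proteins and damps the receptor, read 5.08, 4.64 and 4.78 in AC29, against 8.58, 9.10 and 7.80 in AB1. It was at least 5.35-fold higher in AB1 (difference -3.66, SE 0.278, adjusted p in limma = 6.31e-06), the widest difference among the 32 genes. Ifit1 read 4.09, 3.78 and 4.24 in AC29 and 7.62, 7.95 and 6.90 in AB1, at least 2.67-fold higher in AB1 (adjusted p in limma = 3.19e-06). In both genes the AB1 flasks themselves were far apart, with replicate 6 below the others. Ifit3 averaged 5.30 ± 0.22 in AC29 and 6.63 ± 0.36 in AB1 (difference -1.33, adjusted p in limma = 0.000272). Against the floor it was at least 1.48-fold higher in AB1, so its call rests on AC29 values under the floor; its AB1 values did not reach 7.23, the 99th percentile of those sensory receptor probe sets, and a near-identical mouse copy, Ifit3b, makes its probe set uncertain. Their neighbour in function Ifit2, outside the listed genes, read 3.99, 3.88 and 3.64 in AC29 and 8.79, 9.16 and 8.59 in AB1.

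Oas1a and Bst2 were present in both lines and higher in AB1. Oas1a encodes a synthase of 2-5A, the messenger that activates the nuclease RNase L. It read 7.46, 7.44 and 7.38 in AC29, against 9.44, 9.34 and 9.04 in AB1, which is 3.59-fold (difference -1.85, SE 0.113, adjusted p in limma = 1.42e-06). The groups were separated by more than the spread of either; closely related mouse copies of Oas1a make the assignment uncertain. Bst2, whose product tetherin holds budding virus at the cell surface, read 8.22, 8.83 and 8.39 in AC29 and 10.10, 9.88 and 9.64 in AB1, which is 2.62-fold (adjusted p in limma = 0.000148). Here the AC29 flasks were spread as widely as those of AB1.

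**Figure D3:**
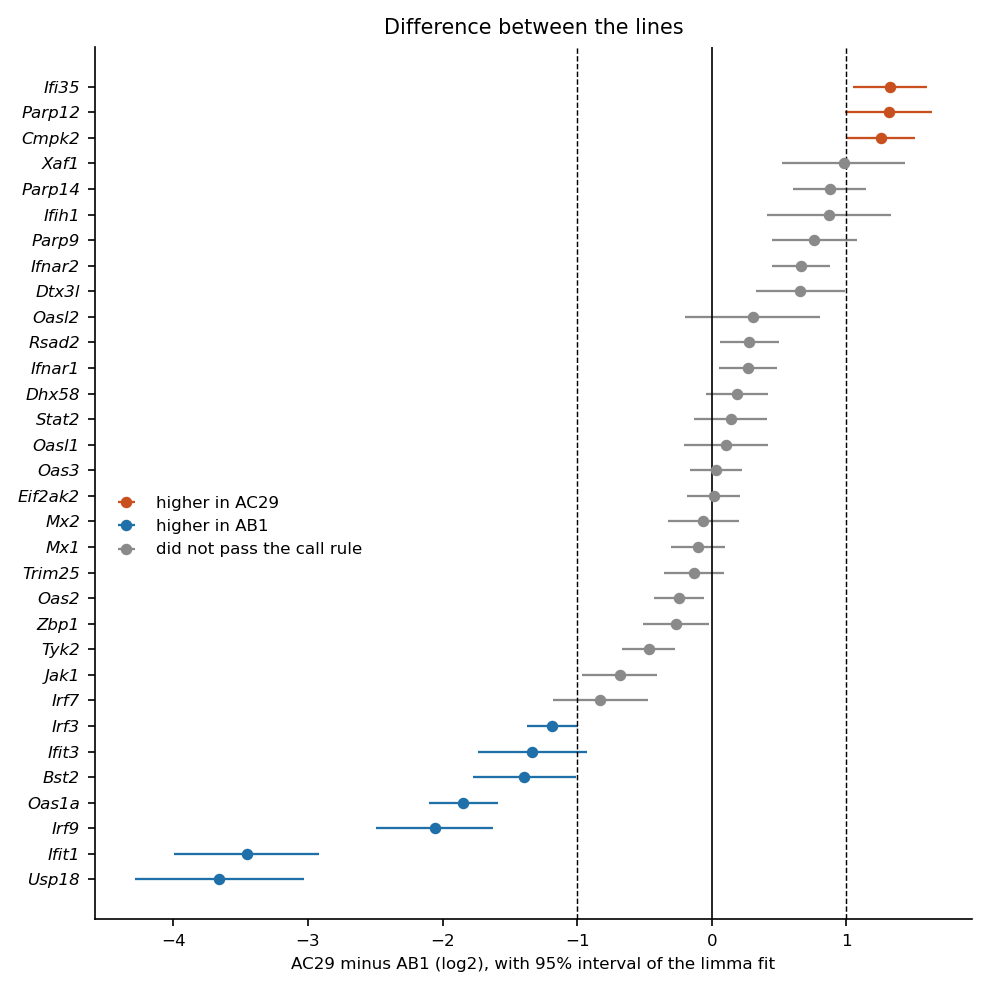
Difference between the lines for the 32 measured genes, AC29 minus AB1 on the log2 scale (horizontal axis), with the 95% interval of the limma fit. Orange marks the 3 genes called higher in AC29, blue the 7 called higher in AB1 and grey the 22 that did not pass; dashed lines are the 2-fold minimum, and Usp18 at -3.66 and Ifi35 at 1.32 are the ends of the range.

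The genes of ADP-ribosylation stood on the AC29 side. Parp12, a mono-ADP-ribosyltransferase with antiviral activity, read 10.22, 9.82 and 10.03 in AC29, against 8.55, 8.98 and 8.59 in AB1, which is 2.49-fold (difference 1.31, SE 0.142, adjusted p in limma = 6.71e-05). Parp9 and its partner Dtx3l, a ubiquitin ligase, form a complex that assists interferon signalling. Parp9 averaged 8.46 ± 0.05 in AC29 and 7.70 ± 0.30 in AB1, with an adjusted p in limma of 0.00189. Dtx3l averaged 8.40 ± 0.22 in AC29 and 7.74 ± 0.23 in AB1, with an adjusted p in limma of 0.00551. Parp14, which modifies proteins of the same pathways, averaged 7.01 ± 0.18 in AC29 and, close to the floor, 6.14 ± 0.17 in AB1 (adjusted p in limma = 0.000322). For each of the 4 genes every AC29 flask was above every AB1 flask, but only Parp12 reached 2-fold; Parp14, Dtx3l and Parp9 differed by 0.88, 0.66 and 0.76. In the RefSeq gene table Parp14, Dtx3l and Parp9 lie next to each other with no coding gene between them, while Parp12 lies on another chromosome.

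Ifi35 and Xaf1 were also on the AC29 side. Ifi35, whose product pairs with NMI, read 11.24, 11.14 and 11.04 in AC29, against 9.86, 10.02 and 9.57 in AB1, which is 2.50-fold (difference 1.32, SE 0.122, adjusted p in limma = 2.30e-05). Its other probe sets differed by 1.27 and 1.31, and the groups did not overlap in any of the probe sets. Xaf1, which binds and counters the apoptosis inhibitor XIAP, read 9.36, 9.51 and 9.42 in AC29 and 8.60, 8.84 and 7.91 in AB1. Its difference of 0.98 (adjusted p in limma = 0.00379) lay just under the minimum and passed the rule without AC29 replicate 13 (1.01), AB1 replicate 4 (1.05) or AB1 replicate 5 (1.17). Cmpk2, a mitochondrial nucleotide kinase, was called at a difference of 1.26 (adjusted p in limma = 1.99e-05), but read 5.92, 6.04 and 6.09 in AC29 and 4.77, 4.95 and 4.55 in AB1. Only 1 AC29 array was above the floor, so no fold is given, and on the mean of its probe sets the difference of Cmpk2 was 0.76. Rsad2, the neighbour of Cmpk2, encodes viperin, which makes a chain-terminating nucleotide, and averaged 6.52 ± 0.02 in AC29 and 6.24 ± 0.15 in AB1.

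The 4 listed sensors of viral nucleic acid did not pass the rule. Ifih1, which encodes the double-stranded RNA sensor MDA5, read 8.49, 8.11 and 8.42 in AC29 and 7.48, 7.91 and 7.03 in AB1 (difference 0.87, adjusted p in limma = 0.00714), and passed at 1.09 without AB1 replicate 5. Eif2ak2, which encodes the translation-blocking kinase PKR, was at 8.04 ± 0.08 in AC29 and 8.03 ± 0.07 in AB1, with an interval of the difference from -0.18 to 0.21. Dhx58, which encodes LGP2, stayed under the floor on all 6 arrays, and Zbp1, a sensor of Z-form nucleic acid, read 6.06 to 6.35 in AC29 and 6.30 to 6.53 in AB1. Trim25, a ubiquitin ligase that assists RIG-I, averaged 9.77 ± 0.02 in AC29 and 9.91 ± 0.17 in AB1 with overlapping flasks.

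The other OAS genes and the Mx genes differed by less than 2-fold. Oasl1, which lacks synthase activity, read 7.99, 8.02 and 8.02 in AC29 and 7.98, 8.15 and 7.57 in AB1, so that the AC29 flasks lay inside the AB1 range. Oas2 averaged 6.33 ± 0.02 in AC29 and 6.57 ± 0.07 in AB1, and Oasl2 had 1 array above the floor in each line. Oas3 and Mx1 stayed under the floor on all 6 arrays, and Mx2 read 5.97 to 6.03 in AC29 and 5.83 to 6.28 in AB1. Mx1 and Mx2 encode dynamin-like GTPases that trap incoming virus, and the RefSeq table of C57BL/6J lists both as transcribed pseudogenes; many inbred laboratory strains carry defective copies. Of the 32 genes, 20 were above the floor on every AC29 array and 24 on every AB1 array; 3 (Dhx58, Oas3 and Mx1) were not above it on any.

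The flasks of AB1 differed from each other more in these genes than in the typical gene. The median SD between AB1 flasks was 0.22 for the 32 genes and 0.09 for all genes, while that between AC29 flasks was 0.10 and 0.12. AB1 replicate 6 was the lowest AB1 array in 25 of the 32 genes, beside 39.3% of all genes, and AB1 replicate 5 was the highest in 25, beside 40.9%. The median deviation from the AB1 mean was 0.04, 0.18 and -0.18 in replicates 4, 5 and 6. Replicate 6 was the lowest AB1 array in 6 of the 7 genes called higher in AB1 and in 8 of the 10 that the adjusted p placed higher in AC29. The highest was not always replicate 5: Irf3, Oas1a and Bst2 were highest on replicate 4, and Ifit3 was lowest there. Replicate 5 exceeded replicate 6 by 1.30 in Usp18, 1.04 in Ifit1, 0.98 in Oasl2, 0.92 in Xaf1, 0.88 in Ifih1 and 0.77 in Irf9. In AC29 no flask was set apart in this way, the lowest array being replicate 13 in 13 genes, replicate 14 in 10 and replicate 15 in 9.

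Listed genes outside the 32 showed the pattern to unequal degrees. Among 55 further interferon targets, AB1 replicate 6 was lowest in 36 and replicate 5 highest in 39, and among 21 genes tied to Irf1 the counts were 16 and 14. Among 16 genes of sensing and induction they were 9 and 7, and among 17 genes of signalling and its brakes 9 and 9, closer to the shares of all genes. Irf1 itself read 8.52, 8.53 and 8.54 in AB1, and Stat3 9.06, 8.86 and 8.88, so these factors did not follow it. A lean in the same direction was present across the array: of 11078 genes above the floor on an AB1 array, replicate 6 was lowest in 44.8% and replicate 5 highest in 49.9%, against 75.0% and 78.6% of the 28 such genes of the 32. What set these flasks apart was not tested. Without AB1 replicate 6 the differences of Usp18, Ifit1 and Irf9 were -4.01, -3.75 and -2.26, and 8 genes were called higher in AB1, with Irf7 added. Without AB1 replicate 5, 5 genes were called higher in AC29, with Ifih1 and Xaf1 added.

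**Figure D4:**
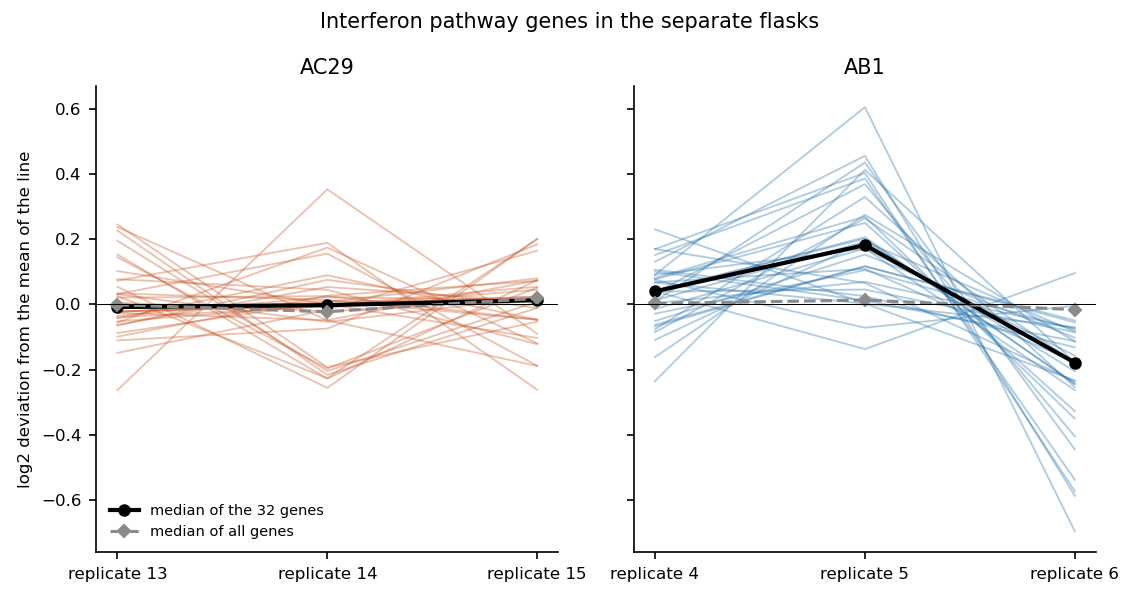
Deviation of each of the 32 genes from the mean of its line (log2, vertical axis) in the 3 AC29 flasks (left) and the 3 AB1 flasks (right). Thin lines are genes, the black line their median and the grey dashed line the median of all genes; replicates have no order. In AB1 the median is 0.18 in replicate 5 and -0.18 in replicate 6, while in AC29 it stays near 0.

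Beside these genes, the measured interferon ligands were near or under the floor. Genes of sensing and induction, and of signalling and its brakes, were mostly not called. Only 10 of the 20 listed ligand genes were measured. Of these 10, 8 stayed under the floor on all arrays, Ifnb1 among them at 4.75 in AC29 and 4.88 in AB1. None of the 10 was called. Ifnz alone had an adjusted p under 0.05 (0.000237 in limma), with 5.66 ± 0.07 in AC29 and 6.34 ± 0.10 in AB1. Its difference of -0.68 missed the 2-fold minimum. Of 16 genes of sensing and induction, 2 (12.5%, beside 10.9% of all genes) were called, both toward AC29. They were Tlr7, an endosomal sensor of single-stranded RNA (7.06 ± 0.06 in AC29 and 5.00 ± 0.22, under the floor, in AB1, SD, n = 3 each), and Ddx58, which encodes RIG-I, at 2.03-fold, with 9.30 ± 0.11 in AC29 and 8.28 ± 0.23 in AB1. Of 17 genes of signalling and its brakes, Stat3 (3.32-fold) and Socs3 (2.39-fold), a suppressor of cytokine signalling, were called, both toward AC29, which is 11.8% beside the same 10.9%.

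Further interferon targets also differed in both directions. Of 55 measured, 7 were called toward AC29, 8 toward AB1 and 40 not at all. The called share was 27.3%, beside 10.9% of all genes, and the median difference of the 55 was 0.03. Toward AC29 the widest differences were those of Nmi, the partner of IFI35, at 5.59-fold, Lgals9, which encodes galectin-9, at 3.05-fold, Rnf213 at 2.78-fold and Trim14 at least 2.24-fold. Toward AB1 they were those of Ifit2 at least 6.85-fold, Phf11d 7.01-fold, Rtp4 4.15-fold and Slfn8 at least 2.15-fold. The highest adjusted p in limma among these 8 genes was 0.000165. So the pair Nmi and Ifi35, whose products bind each other, stood on the AC29 side, and Ifit1, Ifit2 and Ifit3 stood on the AB1 side. Of 21 genes tied to Irf1, 9 were called toward AC29 and 2 toward AB1, which is 52.4% beside the same 10.9%. The median difference of the 21 was 0.67. Irf1 averaged 10.22 ± 0.18 in AC29 and 8.53 ± 0.01 in AB1 (SD, n = 3 each), and the chemokine gene Cxcl10 was 5.02-fold higher in AC29. The 2 toward AB1 were the peptide transporter gene Tap1, at 7.11 in AC29 and 8.25 in AB1, and Nlrc5, which stayed under the floor on all arrays. No test of a difference between these lists was made.

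**Figure D5:**
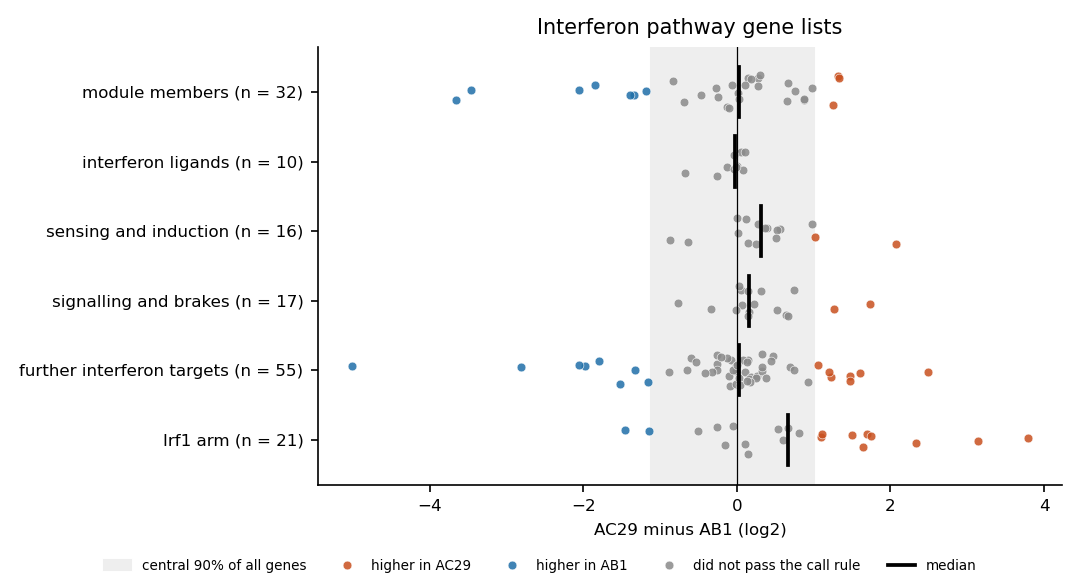
Difference of each measured gene, AC29 minus AB1 on the log2 scale (horizontal axis), for the 32 module genes and 5 lists of other pathway genes. Orange points are called higher in AC29, blue points higher in AB1 and grey points not called; black bars are medians and the shaded band runs from the 5th to the 95th percentile of all genes, -1.11 to 1.01. The module and the further targets reach furthest toward AB1, the Irf1 list toward AC29.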

How the data were processed

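Biotinylated cRNA from 5 ug of total RNA was hybridised to Affymetrix expression arrays, per the labels' protocols. The authors deposited log2 values, 1 per probe set and array; per the submitters' processing notes, the tools were GCOS, Partek 6.4 and RMA, whose roles and order were not given. The log2 scale was read from the values and these notes. Differences among dim values and among very bright values can be compressed on such arrays, and so can be understated. Probe-level data and scan dates were not used here, so no scan batch was tested.

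Of 45101 probe sets, 64 controls were left out; 34945 had 1 gene symbol, 932 several and 9160 none, and 34741 matched RefSeq by Entrez identifier. limma 3.58.1 in R 4.3.3 (lmFit, eBayes, line as the only term, 2-sided) was fitted to every probe set, and p-values were adjusted by Benjamini and Hochberg over 18193 genes. A gene not above the floor on any of 3 arrays has a fold against the floor only, as a lower bound. All 32 measured members are named; of the 5 other lists, up to 4 called genes per direction, the 2 brightest not called and Irf1, Ifit2 and Ifnb1 were open to naming. The members, lists and markers were chosen with earlier results of these data known. The fit was tested on simulated data. Alternatives covered normalization, dim-gene filters, probe set choice, variance model, call rule, floor and leaving out each array.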

Additional observations from a re-analysis of the deposited data

How the results depend on the processing

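Among the 10 called genes, Irf9, Ifit1, Usp18 and Oas1a kept their call and direction under every alternative run that tested them. Each of these 4 genes had 1 probe set, so the probe set alternatives could not change its value. The looser call rules could not remove a call. No called gene changed direction. The counts, 3 genes higher in AC29 and 7 higher in AB1, were the same under quantile normalization, under both centrings, with adjustment over every probe set, with trend, trend and robust settings, no moderation and array weights. With limma's treat against a 2-fold difference they were 0 and 4, leaving Irf9, Ifit1, Usp18 and Oas1a; with the adjusted p alone they were 10 and 11; and with a 1.5-fold minimum they were 9 and 9. With only genes whose mean was above the floor, which removed Ifit1, Ifit3 and Cmpk2, the counts were 2 and 5. With only genes above the floor in at least 1 line they were 2 and 7. Leaving out each array gave 3 to 5 genes higher in AC29. Irf3 lost its call on the mean of its probe sets (-0.68) and when probe sets with an _x, _s or _a suffix were left out (-0.16), and Cmpk2 on the mean of its probe sets (0.76). The median difference over the members ran from -0.06 to 0.06 under the alternatives. Members above the floor on every array numbered 26 in AC29 and 27 in AB1 with the floor at 5.68, and 16 in AC29 and 17 in AB1 with the floor at 7.23, so genes between 6.07 and 7.23 are near background. No paired analysis was possible because AC29 and AB1 share no replicate numbers.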
